A study of Phyllostachys edulis with 12 samples.

Results

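The step from 0.5 h to 1 h of cold was followed in whole seedlings of Phyllostachys edulis, the moso bamboo, which is a tall woody member of the grass family. The comparison sets the 3 libraries labelled as 1 h of cold against the 3 labelled as 0.5 h, which are 6 of the 12 samples that the labels describe, and it covers every gene of the count table. Seedlings of both groups were 3 weeks old and at the 3-leaf stage. They were held at -2 °C in a freezing chamber, with the light and day length that the controls had. Control seedlings of the same age received no cold and are used here to show where the untreated level lies. The labels name no cultivar, genotype or transgene, and they do not say whether a library is 1 plant or a pool. Libraries of 24 h at -2 °C (2 libraries) entered the fit and supplied a list of late-responding genes.

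Plants sense low temperature within a short time, through changes in membranes and in calcium inside the cell. Transcription factors of the CBF (DREB1) family are then induced and switch on genes for protective proteins and solutes. Early cold transcripts are often transient, because many of the first regulators are switched on and off again before the slower set of genes responds. The count table gives identifiers without names or descriptions, so none of these families could be looked up and the labelled tissue could not be checked against marker genes. Of 47091 genes, 39640 were counted highly enough to be tested.

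Total counts in the 6 libraries lay between 29304206 and 34543663. Libraries of the 2 groups were about as alike as libraries of 1 group. Across genes, libraries within a group correlated at 0.944 to 0.952 in log2 CPM, a count relative to the scaled size of its library, and libraries of different groups at 0.940 to 0.950. The first principal component of the 6 libraries took up 23.3% of their variance. It placed the 0.5 h group at -59.7, -52.1 and 8.24 and the 1 h group at -10.9, 107 and 7.29, so the groups overlapped on it. The second component, with 21.1%, placed the 0.5 h group at 9.7, -23.9 and -94.4 and the 1 h group at 35, -0.415 and 74.0, which overlapped too. In the plane of both components the groups occupied separate areas, which 3 points a group can easily do, and this separation was not tested. Replicate 2 of 1 h, at 107 on the first component, stood farthest from the rest. The spread between libraries was somewhat wider at 1 h, with a median SD per gene of 0.18 log2 units against 0.141 at 0.5 h over the 18438 genes whose mean log2 CPM was 3 or more.

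One gene passed the test between the 2 times, and it was higher at 1 h. PH01221966G0010 had 0.168, 0.12 and 0.0942 CPM in replicates 1 to 3 at 0.5 h and 3.0, 4.32 and 2.88 CPM at 1 h. Every 1 h library lay far above every 0.5 h library. These levels rest on 3 to 5 counts per library at 0.5 h and 95 to 150 counts at 1 h. The log2 fold change was 4.70 (SE 0.35, 95% interval 3.92 to 5.48, edgeR adjusted p = 0.00189), a 26.0-fold rise. The untreated seedlings were at 3.59, 2.88 and 2.55 CPM, which overlapped the 1 h libraries, so the rise led back towards the control level. The 1 h and control means differed by a log2 fold change of 0.18, with a 95% interval of -0.44 to 0.79. After 24 h the gene was at 0.15 and 0.2 CPM, close to its 0.5 h level. Its listed length, 389, is short beside the table's median of 2897, in a unit the table does not state.

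The gene with the next smallest p-value among those higher at 1 h was also low at 0.5 h but did not pass edgeR's test. PH01003658G0180 had 0.336, 0.662 and 0.565 CPM at 0.5 h and 5.72, 6.83 and 3.58 CPM at 1 h. The groups did not overlap, and the lowest 1 h library was replicate 3. The fitted log2 difference was 3.35 (SE 0.43, edgeR adjusted p = 0.185). Its control libraries, at 1.16, 2.44 and 3.22 CPM, lay between the groups, above every 0.5 h library and below every 1 h library. At 24 h it was at 2.10 and 1.77 CPM, inside the control range. The test was passed without control replicate 1 (edgeR adjusted p = 0.035) or without 1 h replicate 3 (edgeR adjusted p = 0.0454), and over the settings tried the edgeR adjusted p ran up to 0.772. DESeq2 gave an adjusted p of 3.48e-09.

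No gene was called lower at 1 h by edgeR, and the 2 genes with the smallest p-values in that direction are given as values. PH01000086G0760 had 46.8, 62.7 and 62.1 CPM at 0.5 h and 30.8, 31.9 and 30.6 CPM at 1 h. The 1 h libraries were close together and below all other libraries analysed, the controls at 46.4, 49.4 and 57.1 CPM and the 24 h libraries at 54.0 and 63.0 CPM included. The fitted log2 difference was -0.88 (SE 0.13, edgeR adjusted p = 0.485), with counts of 1008 to 2084 per library. Against the controls it was 0.17 (95% interval -0.12 to 0.46) at 0.5 h and -0.71 (95% interval -1.0 to -0.42, edgeR adjusted p = 0.37) at 1 h, so the step led away from the untreated level.

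PH01000852G0280 was sparsely counted, with 25 to 76 counts per library at 0.5 h and 3 to 8 at 1 h. It had 2.55, 0.752 and 2.10 CPM at 0.5 h and 0.138, 0.0864 and 0.243 CPM at 1 h, and the groups did not overlap. On the log2 scale the fitted difference was -3.51 (SE 0.56, edgeR adjusted p = 0.485). The controls, at 1.16, 0.64 and 0.906 CPM, overlapped the 0.5 h libraries and lay above all 1 h libraries, as did the 24 h libraries at 1.31 and 1.27 CPM. DESeq2 gave adjusted p-values of 4.53e-06 for PH01000086G0760 and 0.000153 for PH01000852G0280. The contrasts of 0.5 h and of 1 h with the control each share libraries with the contrast between the 2 times, so the place of the control level beside each gene is a description.

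**Figure D1:**
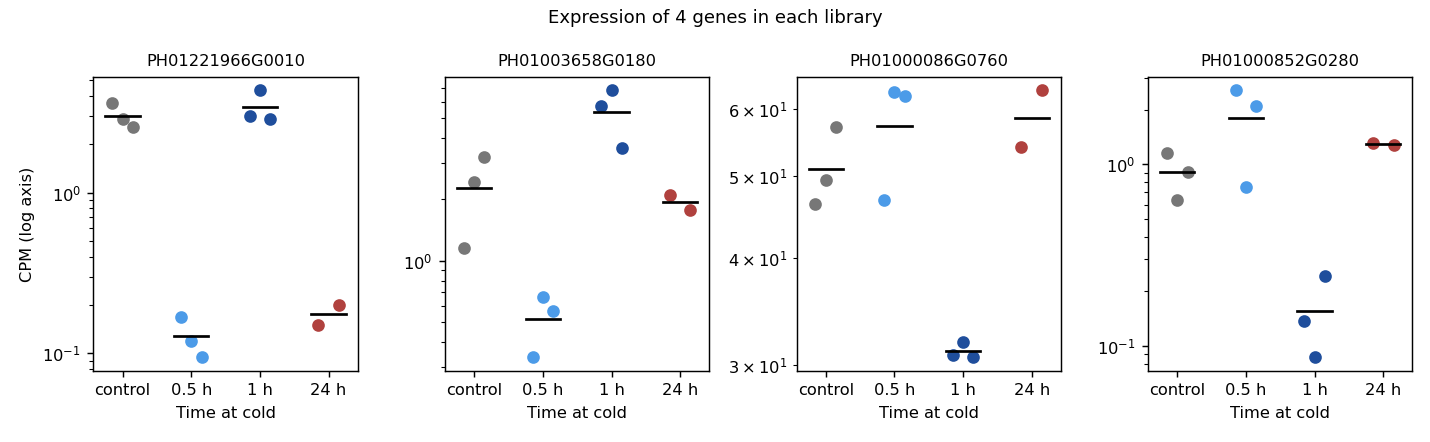
CPM of the 4 named genes in each library (points, log axis) by group, with the arithmetic mean of each group as a bar (3 libraries each, 2 at 24 h). PH01221966G0010 is low at 0.5 h and 24 h and high in the controls and at 1 h, while PH01000086G0760 is lowest in the 3 libraries of 1 h.

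Over all genes, edgeR's quasi-likelihood test called 1 of 39640 (0.00252%), 1 higher and 0 lower. At an unadjusted p under 0.05 there were 2760 genes (6.96%), 1290 higher (3.25%) and 1470 lower (3.71%). DESeq2 called 136 genes (0.343%), 70 higher and 66 lower. The higher DESeq2 calls had a median log2 fold change of 1.47 and the lower ones a median size of 0.68. In CPM, 62 of the 70 and 61 of the 66 had no overlap between the groups. Of all genes, 6.26% showed this pattern upward and 6.89% downward. The DESeq2 calls were picked by their difference between these same libraries, so their lack of overlap is a description and no separate evidence for them. The edgeR count ran from 1 to 11 when single libraries were left out, and PH01221966G0010 was called each time.

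Large differences were mostly found among thinly counted genes. A 2-fold or larger difference without overlap was seen for 482 genes higher and 301 lower at 1 h, and 409 and 244 of these had a mean log2 CPM of up to 1. Among the 6900 genes above a mean log2 CPM of 5, only 3 were at least 2-fold higher and 3 at least 2-fold lower in this way. For these abundant genes the data set narrow limits on the step. The 95% interval of the fold change lay within 2-fold in either direction for 96.6% of them, for 93.4% of the genes from 3 to 5 and for 72.4% of those from 1 to 3. It did so for 9.61% of the genes up to 1, where the median SE was 0.64 log2 units. A 2-fold change there was not detectable for most genes. The intervals are not adjusted for the number of genes tested. A narrow interval thus does not mean that a 2-fold change would be called. PH01000086G0760, at a log2 difference of -0.88 with an SE of 0.13, had an edgeR adjusted p of 0.485. In all, 25347 genes (63.9%) had an interval within 2-fold. They include 58 genes with a fitted log2 fold change of exactly 0, of which 55 had a mean log2 CPM of up to 1. The formula used for the SE gives 0 for such genes, so their intervals set no limit on the step.

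A few genes were present at one time and at 0 at the other. There were 6 genes with at least 10 counts in each 1 h library and 0 in each 0.5 h library. The reverse held for 5 genes. Every count on the low side was exactly 0, although a gene with an expected count of up to about 3 can still give a 0 in a single library. A 0 in every library of a group points to a smaller expected count than that. None of these genes passed edgeR's test, with a smallest adjusted p of 0.521, while DESeq2 called 5 of the 6 and 4 of the 5. For 4 of the 6 genes and 3 of the 5, the control libraries themselves were mixed, with counts in some and 0 in others. Single zeros also occurred within groups. Of the 47091 genes, 382 at 0.5 h and 449 at 1 h were at 0 in 1 library and had at least 10 counts in both others, against 460 in the controls. That pattern asks for 0 in only 1 library and is met more easily, so its numbers cannot be set directly against the 6 and 5 genes.

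The most abundant transcripts of the seedlings lay lower at 1 h than at 0.5 h. Ranked by mean CPM in the controls, which enter neither side of the comparison, the 100 most abundant genes had 753 CPM or more. They took 18.9%, 20.4% and 19.1% of all counts in the 0.5 h libraries and 17.2%, 15.6% and 17.5% in the 1 h libraries. All 1 h libraries were below all 0.5 h libraries, with means of 16.8% ± 1.02 and 19.5% ± 0.814 (SD, n = 3 each). The control libraries, at 17.5%, 18.6% and 20.3%, reached from the highest 1 h value to near the highest 0.5 h value, so the untreated libraries alone spanned about the gap between the times. The 24 h libraries were higher, at 22.2% and 21.0%.

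The shift was seen in most of the 100 genes and was small in the typical one. The log2 fold change was negative for 90 and positive for 10 of them, with a median of -0.33 (quartiles -0.40 and -0.24) against 0.004 over all genes tested. At an unadjusted p under 0.05, 51 were lower and 0 higher, beside 3.71% and 3.25% of all genes. Without overlap, 67% were lower, beside 6.89% of all genes. At an adjusted p under 0.05 edgeR called 0 of them and DESeq2 called 2 lower, beside 0.166% of all genes called lower by DESeq2. The log2 fold changes of the 100 genes ran from -0.81 to 1.51, and 4 were at -0.5 or below. The list was drawn up after the trend with abundance had been seen, so these counts describe it and do not test it.

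The difference became smaller down the order of abundance. The next 900 genes had a median log2 fold change of -0.091, with 65.2% lower at 1 h, and took 21.8% ± 0.4 of the counts at 0.5 h and 21.5% ± 0.436 at 1 h (SD, n = 3 each), which overlapped. The 9000 genes after those had a median of -0.009, and the other 29640 had 0.016. The counts no longer taken by the 100 genes appeared in the classes of lower abundance. The class of 9000 genes took 42.6%, 41.5% and 42.3% at 0.5 h and 43.9%, 44.4% and 43.5% at 1 h, and the class of 29640 genes took 17.1%, 16.3% and 16.3% at 0.5 h and 17.6%, 17.9% and 17.6% at 1 h. In both classes every 1 h library was above every 0.5 h library. Since counts are shares of a library, less RNA of the abundant genes and more RNA of the others cannot be told apart here. The TMM scaling factors moved with this, from 0.982 to 1.016 at 0.5 h and from 1.051 to 1.064 at 1 h. With library size alone the median of the 100 genes was -0.239 and that of all genes 0.091, so the distance between them was the same (-0.33).

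**Figure D2:**
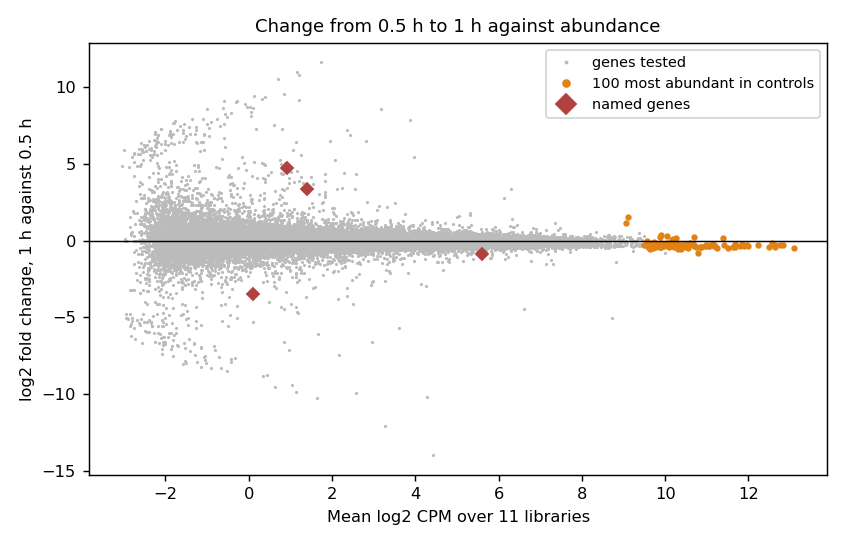
Log2 fold change of 1 h against 0.5 h for each of the 39640 genes tested, against mean log2 CPM. The widest scatter is at low abundance, the 100 genes most abundant in the controls (orange) lie mostly just below 0 with a median of -0.33, and the 4 named genes (diamonds) include the only call, PH01221966G0010.

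**Figure D3:**
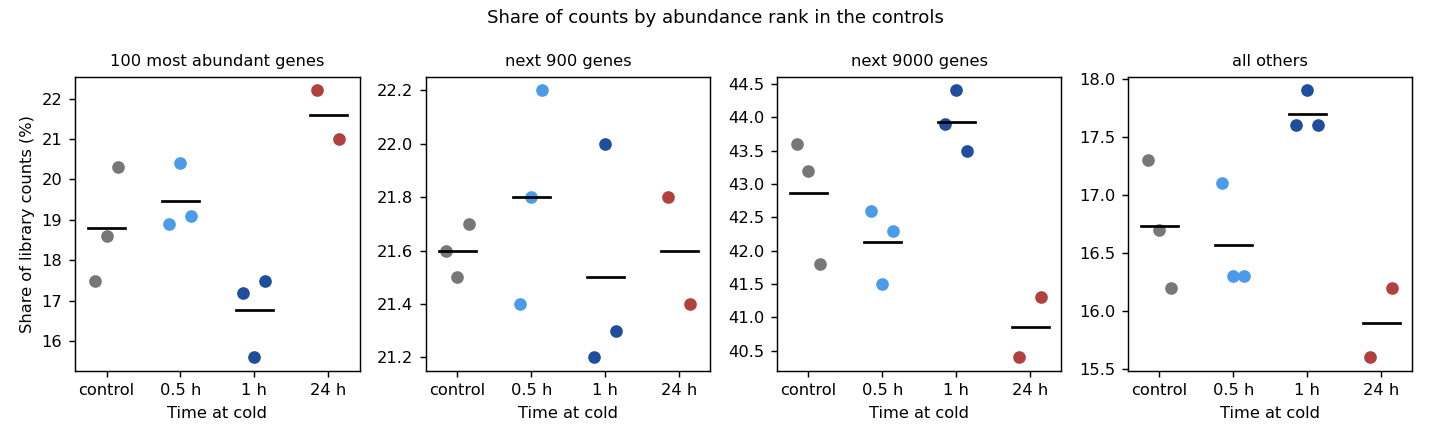
Share of each library's counts (points, %) taken by 4 classes of genes, ordered by abundance in the controls, with the group mean as a bar. The axes have different ranges and do not start at 0. The mean of the 1 h libraries is the lowest for the 100 most abundant genes and the highest for the last 2 classes, and the control libraries lie between 17.5% and 20.3% for the 100 genes.

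Gene length, as the table lists it, moved with the step as well. Genes were put in 4 equal classes of length. Over all genes tested the difference was slight, with medians of -0.021 (52.1% lower at 1 h) in the shortest class and 0.028 (43.6% lower) in the longest. It was wider at intermediate abundance. In the abundance class of 9000 genes, those of the shortest class (lengths up to 1630) had a median log2 fold change of -0.115, with 72.8% lower at 1 h. Those of the longest class (8476 and more) had a median of 0.029, with 42.4% lower. Among the 29640 least abundant genes the medians were 0 and 0.031. Within the 100 most abundant genes the medians were -0.334 for the shortest class (29 genes) and -0.258 for the longest (11 genes), so both lay lower. The part of length in the shift of abundant genes was not tested further.

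Genes that respond after a day in the cold were then followed over this early step. At 24 h against the control, edgeR called 1288 genes higher (3.25%) and 1720 lower (4.34%), and that contrast shares no library with 1 h against 0.5 h. The size of these lists depended on the libraries and the scaling: they held 590 and 767 genes when 24 h replicate 1 was dropped, 565 and 716 when 24 h replicate 2 was dropped, 798 and 1180 when control replicate 1 was dropped, and 740 and 1133 when control replicate 2 was dropped. Scaling by library size alone gave 858 higher and 2963 lower. The genes higher at 24 h lay lower at 1 h than at 0.5 h more often than not: 904 were lower, 369 higher and 15 had a fold change of 0. All 15 were among the 133 genes at least 16-fold higher at 24 h. That class was thinly counted, with a median of 0.597 CPM over the 6 libraries, so a 0 there need not mean a steady level. The median log2 fold change of the genes higher at 24 h was -0.13, against 0.004 over all genes tested. At an unadjusted p under 0.05, 166 of them (12.9%) were lower and 26 (2.02%) higher, beside 3.71% and 3.25% of all genes. Without overlap, 224 (17.4%) were lower and 42 (3.26%) higher, beside 6.89% and 6.26%.

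The median was below 0 in genes of small and of large late response. The 562 genes that were less than 2-fold higher at 24 h had a median of -0.107, the 328 genes from 2-fold to 4-fold -0.136, the 265 genes from 4-fold to 16-fold -0.23 and the 133 genes beyond 16-fold -0.199. These genes tend to be more abundant than the rest, with a median of 12.6 CPM over the 6 libraries against 6.69 CPM for all genes. At matched abundance, 81.1% of those above a mean log2 CPM of 5 were lower at 1 h beside 55.0% of all such genes, and 68.0% beside 50% from 3 to 5. Of the 100 most abundant genes, 7 were in the list, beside 3.25% of all genes tested. Without those 7 the median of the list was -0.128.

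This difference rested in large part on 1 library. After centring each gene on its mean over the 6 libraries, the median of the list was 0.02, 0.008 and 0.129 log2 units in replicates 1 to 3 of 0.5 h and -0.054, -0.035 and -0.063 in those of 1 h. Replicate 3 of 0.5 h stood well above its fellows, although the groups did not overlap. Without that library the list's median, relative to all genes, shrank from -0.134 to -0.044, and 55.2% of the list was lower at 1 h. As a share of counts, the list took 4.88%, 4.80% and 4.99% at 0.5 h and 4.56%, 4.45% and 4.50% at 1 h, which did not overlap either. The 100 most abundant genes kept their difference without that same library, at -0.336 relative to all genes.

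The 1720 genes lower at 24 h were more evenly divided. At 1 h 940 were higher and 780 lower than at 0.5 h, with a median log2 fold change of 0.028. At an unadjusted p under 0.05, 80 (4.65%) were higher and 51 (2.97%) lower, beside 3.25% and 3.71% of all genes. The library medians were -0.013, -0.024 and 0.004 at 0.5 h and -0.037, 0.086 and 0.008 at 1 h, and the groups overlapped.

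**Figure D4:**
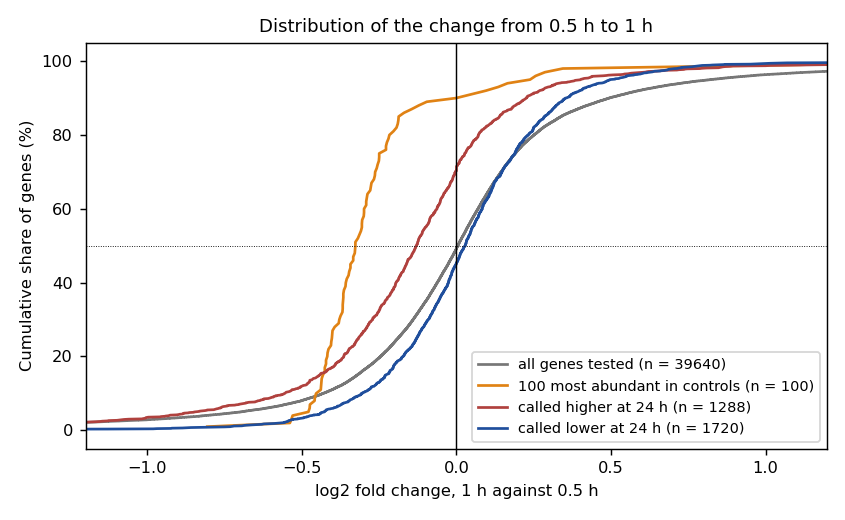
Cumulative distribution of the log2 fold change of 1 h against 0.5 h for all genes tested and 3 lists of genes, with the axis limited to the central part. The curve of the 100 most abundant genes is shifted to the left (median -0.33), that of the genes higher at 24 h less so (median -0.13), and that of the genes lower at 24 h follows the curve of all genes around its middle.

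**Figure D5:**
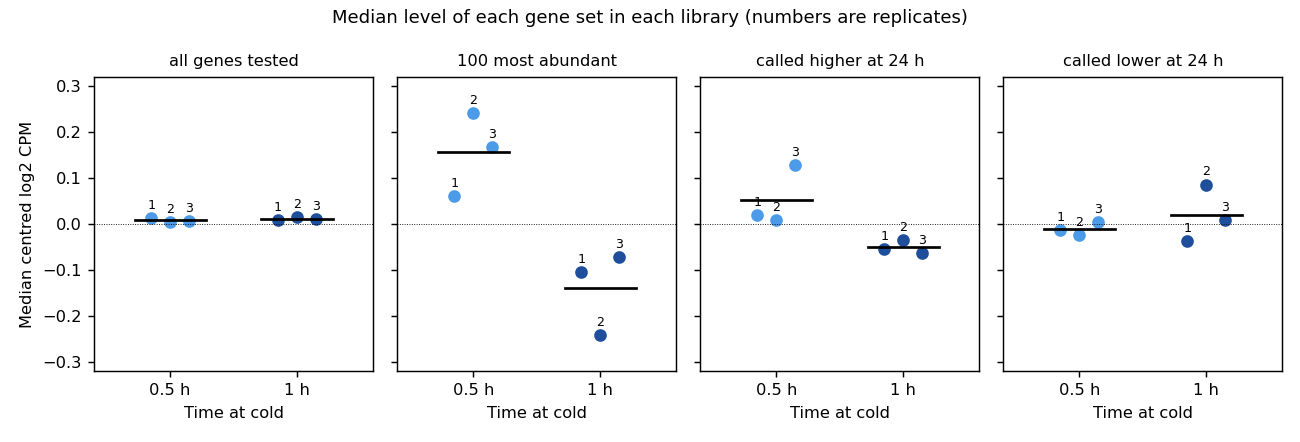
Median over each gene set of log2 CPM, centred on each gene's mean over the 6 libraries, for each library of 0.5 h and 1 h (points with replicate numbers) with the group mean as a bar. The sets of the most abundant genes and of the genes higher at 24 h do not overlap between the times, and replicate 3 of 0.5 h lies at 0.129 for the latter.

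Genes with a PH01 identifier and entries listed as newGene had similar medians in this step. Of 27288 genes with a PH01 identifier, 3.27% were higher and 3.91% lower at an unadjusted p under 0.05, and of 12352 entries listed as newGene the shares were 3.21% and 3.25%. Their median log2 fold changes were 0.005 and 0.003. The newGene entries were counted more thinly, with a median of 2.27 CPM against 9.9 CPM, and 47.5% of them had an interval within 2-fold, against 71.4%.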

How the data were processed

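Per the labels' protocols, an RNeasy kit gave the RNA and a NEBNext Ultra kit the libraries. HISAT2 was used, per the submitters' processing notes; not given in the sources used here are its version, the counting tool, the build, the annotation and how strand and multiply fitting reads were handled. The authors' deposited table holds raw counts per gene, read as such because the values are whole and the totals differ. The code in each sample's description matched it to a column. This left 1 count column unused, since it matched no label, and 24 h replicate 3 not analysed here. Should the table have its own numbering, the unused column may itself be a 24 h library left out of the fit, the libraries called 24 h replicates 1 and 2 may be replicates 2 and 3, and the sample not analysed would then be another.

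Genes were filtered with filterByExpr and scaled by TMM in edgeR 4.0.16 (R 4.3.3). A single quasi-likelihood fit of the 11 libraries had 1 mean per group (7 residual and 3.86 prior degrees of freedom), p-values were adjusted by Benjamini-Hochberg over all 39640 genes, and a gene was called at an adjusted p under 0.05. DESeq2 1.42.0 was an alternative; 166 genes without an adjusted p there were not counted as calls. Each SE is the size of the log2 fold change over the root of its F statistic. Log2 CPM used a prior count of 2. The scripts were tested on simulated data.

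Named genes are the 2 with the smallest p in each direction among those with a mean of at least 1 CPM at 0.5 h or 1 h. All pairs of the 6 libraries differed by more than sampling noise (lowest chi-square per degree of freedom 20.8). Replicates are not said to be separate plants, so p-values measure only the spread of these samples, possibly a technical one. Any batch that ran along the groups cannot be told apart from time. The comparison and lists were chosen with earlier results of these data known.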

Additional observations from a re-analysis of the deposited data

Results flagged for a closer look

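PH01221966G0010 differed between the times in its response: its log2 fold change against the control was 4.70 higher at 1 h than at 0.5 h, and this difference itself passed edgeR's test (adjusted p = 0.00189). The control cancels, so the value is the contrast between the times. With at most 3 libraries a group, single libraries were not tested as standing apart.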

How the results depend on the processing

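The count of 1 called gene (1 higher, 0 lower) was kept with RLE factors, upper-quartile factors, library size alone, no filter or a stricter filter on low counts, and a replicate block, which also gave 1 gene. Same-numbered libraries did not deviate together (correlations 0.017, -0.044 and -0.041), 0 of 3 1 h libraries correlated best with their own number, and the block is given only here. A fit of only the 0.5 h and 1 h libraries called 4 genes, 3 of them lower. DESeq2 called 136, with 70 higher and 66 lower. When 1 library was left out the edgeR count ran from 1 to 11, with 1 to 5 higher and 0 to 6 lower: it was 6, 4 and 11 when 1 h replicates 1, 2 and 3 were dropped in turn, 2 when 0.5 h replicate 1 or 2 was dropped, 3 when control replicate 1 was dropped and 3 when either 24 h library was dropped. The cause was not tested. PH01221966G0010 was called in each of these settings, with log2 fold changes of 4.49 to 4.94 over the left-out libraries. No named gene changed direction. Relative to all genes, the median of the genes higher at 24 h was -0.178 to -0.044 over the left-out libraries and -0.154 to -0.132 over the other settings. That of the genes lower at 24 h was -0.013 to 0.044, so its sign was not stable. That of the 100 most abundant genes was -0.379 to -0.25; this list and its settings were chosen after seeing the data.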
